A study of Mus musculus with 3 samples.

Results

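Axons and many other migrating cells are steered by secreted or membrane-bound ligands that attract or repel them through cell surface receptors. The main families are semaphorins with their plexin and neuropilin receptors, netrins with Dcc, neogenin and Unc5 receptors, Slits with Robo receptors, and ephrins with Eph receptor tyrosine kinases. In the developing heart the same molecules are known for guiding cardiac neural crest cells, endothelial cells and autonomic nerves, and several are needed for septation of the outflow tract. Genes of these families were examined for binding by TBX5, a factor of the T-box family that is required in the embryo for heart and forelimb.

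The genes were chosen by symbol, and 67 of the 20665 protein-coding RefSeq genes on chromosomes 1 to 19 met the rule. They comprise semaphorins other than Sema3d, plexins, neuropilins, Slits, Robo1 to Robo3, numbered netrins, genes whose symbol begins with Unc5, Dcc, Neo1, ephrins and numbered Eph receptors. The Unc5 prefix also brings in Unc50 and Unc5cl, which share it by name and are kept apart from the families below. Bound genes are those with 1 or more peak summits, the positions of highest signal, inside the gene or up to 10 kb beyond either end. The chromatin came from hearts of E14.5 embryos of CD-1, an outbred mouse stock with no genetic change named in the labels. The 2 ChIP samples were made with anti-TBX5, and 1 further sample is the input. How many hearts entered each sample is not stated in the labels. Peaks were called once on the pooled samples, so no value exists per replicate, the spread between hearts cannot be given, and every value below is a description of 1 peak list. In chromatin of the whole organ, cells with more binding and more cells with binding cannot be told apart.

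The deposited list held 12284 peaks on chromosomes 1 to 19, with a median fold enrichment over background of 5.67. The fold is the authors' value at the summit. The interval given after a fold is an exact 95% Poisson interval of the number of pooled fragments over the summit. It covers the counting error of these fragments only, with the background held fixed. All 8 cardiomyocyte marker genes examined were bound, with highest folds from 5.52 (Myh6) to 62.2 (Myl2). Of neuronal markers 3 of 8 were bound (Syt1 at 24.4-fold, Elavl4 at 12.8-fold and Rbfox3 at 10.4-fold). Of neural crest and glial markers 1 of 5 was bound (S100b, 4.17-fold), and of endothelial markers 2 of 5 (Pecam1, 27.3-fold, and Tek, 6.84-fold). Of all protein-coding genes 30.9% were bound. The neuronal share of 37.5% was thus near that of all genes, and the 3 bound neuronal markers are over 100 kb long, a length at which 64.0% of all genes were bound. Genes given below as unbound had no summit past the threshold of the authors' call, and weaker binding was not detectable at this depth.

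At 3 members of the named families a summit lay in the RefSeq promoter window before the gene body, and the 3 differed in the authors' chromatin class. Their sequences are shown because the whole stretch before the start lies outside the gene body. Windows with a summit at Nrp1 and Neo1, both active promoter peaks, lie wholly or partly inside the gene body and are not printed. In the deposited table, peaks outside promoters were classed active where they overlapped H3K27ac without H3K27me3 and poised where they overlapped H3K4me1 with neither. Bivalent peaks overlapped H3K27ac and H3K27me3, and repressed ones outside promoters H3K27me3 without H3K27ac. Ephb4, the receptor for ephrin-B2 that marks venous endothelium, carried an active promoter peak. Unc5c, a repulsive netrin receptor, carried a bivalent one, and Sema6b, a transmembrane semaphorin, one classed as repressed. The Sema6b peak overlapped H3K27me3 without H3K27ac, and it also overlapped H3K4me1, H3K4me3 and H3K9ac. Each line gives the 250 bases before the start, 5′ to 3′ on the gene's strand, from RefSeq on GRCm38.p6, the assembly that mm10 names. Capitals mark the 11 bases centred on the TBX5 summit. The stretches lie at chr5:137349859-137350108 (plus strand), chr3:141465314-141465563 (plus strand) and chr17:56140344-56140593 (minus strand).
Ephb4: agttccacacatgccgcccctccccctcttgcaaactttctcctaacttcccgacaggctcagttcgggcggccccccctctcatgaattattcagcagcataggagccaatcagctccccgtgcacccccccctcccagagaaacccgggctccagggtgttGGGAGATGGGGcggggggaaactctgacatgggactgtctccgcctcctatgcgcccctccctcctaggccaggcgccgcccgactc
Unc5c: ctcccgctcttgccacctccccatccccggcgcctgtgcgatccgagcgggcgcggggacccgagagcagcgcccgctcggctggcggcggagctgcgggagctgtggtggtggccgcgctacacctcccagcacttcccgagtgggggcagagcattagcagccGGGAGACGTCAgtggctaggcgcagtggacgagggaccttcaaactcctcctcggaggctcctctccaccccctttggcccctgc
Sema6b: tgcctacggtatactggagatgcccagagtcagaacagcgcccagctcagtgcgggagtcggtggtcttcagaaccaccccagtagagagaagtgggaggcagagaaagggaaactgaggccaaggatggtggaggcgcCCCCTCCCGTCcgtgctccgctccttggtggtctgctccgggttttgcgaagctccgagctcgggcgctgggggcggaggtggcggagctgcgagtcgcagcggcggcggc

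The summit lay 82 bp before the start in Ephb4, 80 bp before it in Unc5c and 106 bp before it in Sema6b. The T-box core AGGTGT, searched on both strands, occurred once in the Unc5c stretch, beginning 129 bp before the start on the opposite strand, and not in the other two. RefSeq promoter windows of 300 bases (250 before and 50 after a start) were available for 57 of the 67 genes. Of 73 such windows at axon guidance genes 8 held AGGTGT (11.0%; 7 genes), against 2560 of 20085 windows of all genes (12.7%). The longer AGGTGTGA was present in 1 window, that of Sema4a (1.37%, against 1.17% of all windows). GGTGTGA was present in 4 windows, those of Efna1, Nrp2, Sema4a and Sema6c (5.48%, against 3.67%). These 3 motifs overlap in their letters, and every AGGTGTGA holds both of the shorter ones. Letters known for other cardiac factors were counted too. The windows of axon guidance genes were richer in G and C, with a median of 64.4%, against 56% for all windows, and the part of base composition in these shares was not tested. The GATA motif AGATAA was found in 3 windows (4.11%, exact 95% interval 0.856 to 11.5, against 9.57%). The TEAD motif CATTCC was found in 9 windows (12.3%, 5.80 to 22.1, against 13.4%). The NKX2-5 motif AAGTG was found in 27 windows (37.0%, 26.0 to 49.1, against 45.0%). Each of these intervals includes the share of all windows. Matches are descriptions of letters in these windows, and no sequence was read at peaks outside them.

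Of the 67 axon guidance genes 44 were bound (65.7%, exact 95% binomial interval 53.1 to 76.8), against 30.9% of all protein-coding genes. They held 111 summits, none of which was shared between members. At least 2 summits were found at 27 genes (40.3%, against 11.6% of all genes) and at least 4 at 10 genes (14.9%, against 2.63%). A peak of at least 10-fold stood at 15 genes (22.4%, against 5.92%) and one of at least 20-fold at 7 (10.4%, against 1.55%). The median over bound genes of the highest fold was 6.76, against 5.64 over all bound genes.

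Gene length moved with these shares. The median gene body was 69.0 kb for axon guidance genes and 17.5 kb for all genes. Among genes under 30 kb, 14 of 27 axon guidance genes were bound (51.9%, 31.9 to 71.3), against 22.0% of all genes of that length. Between 30 and 100 kb it was 4 of 8 (50.0%, 15.7 to 84.3), against 39.7%. Over 100 kb it was 26 of 32 (81.3%, 63.6 to 92.8), against 64.0%. The interval of the shortest class lay above the level of all genes, and those of both longer classes included it. At 9 of the 14 bound genes of the shortest class, however, every summit was also in reach of another protein-coding gene. These were Epha1, Ephb4, Efnb3, Efna4, Ntn3, Sema3b, Sema3g, Sema4c and Unc50. The same count over all genes of that length was not made. The classes do not match length fully, since the median body was 14.8 kb for axon guidance genes and 8.72 kb for all genes in the shortest class, 45.2 kb and 49.7 kb in the middle one and 255 kb and 172 kb in the longest. Per 100 kb of extended gene body the axon guidance genes held 0.765 summits and all genes 0.799. Under 30 kb these densities were 2.12 and 0.970, between 30 and 100 kb 0.859 and 0.868, and over 100 kb 0.658 and 0.649. Of the 15 genes of at least 10-fold 12 were over 100 kb, as were 5 of the 7 of at least 20-fold. So were 22 of the 27 with at least 2 summits and 9 of the 10 with at least 4. In that class these shares were, in order, 37.5%, 15.6%, 68.8% and 28.1%, against 24.0%, 6.57%, 40.3% and 16.0% of all genes. Under 30 kb they were 11.1%, 7.41%, 14.8% and 3.70%, against 2.41%, 0.572%, 5.58% and 0.423%. Between 30 and 100 kb no axon guidance gene reached 10-fold or 4 summits.

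**Figure D1:**
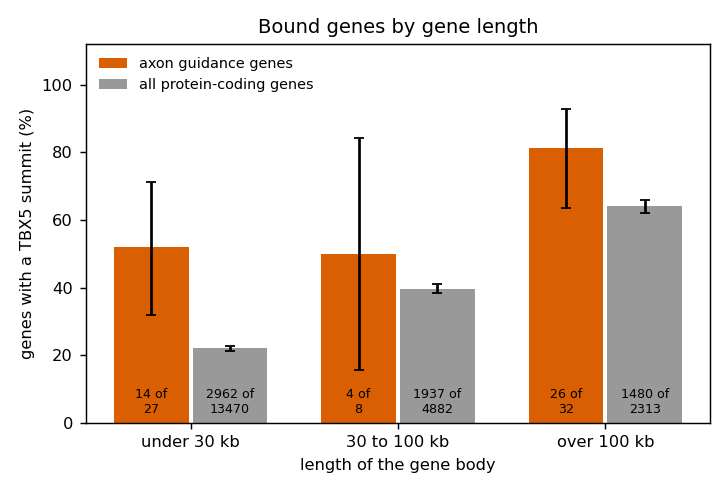
Percentage of genes with a TBX5 summit in the body or within 10 kb (y axis) in 3 classes of gene body length (x axis), for axon guidance genes (orange) and all protein-coding genes (grey), with exact 95% binomial intervals. The orange bars stand at 51.9%, 50.0% and 81.3%, against grey bars at 22.0%, 39.7% and 64.0%, and the number of bound genes of all genes is written in each bar.

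By family, 8 of 10 netrins and netrin receptors were bound, 7 of 9 plexins and neuropilins, 13 of 19 semaphorins, 8 of 14 Eph receptors, 3 of 6 Slits and Robos and 3 of 7 ephrins, against 30.9% of all genes. The families differ in length, with median gene bodies between 9.22 kb for ephrins and 457 kb for Slits and Robos. The share of ephrins (42.9%) stands beside 22.0% for all genes under 30 kb, and that of Slits and Robos (50.0%) beside 64.0% for all genes over 100 kb. Neither family lies wholly in that length class. Ephrins include the bound Efna5 (278 kb) and the unbound Efnb2 (44.0 kb), and Slits and Robos include the unbound Robo3 (17.4 kb). Ligands were bound in 20 of 33 cases (60.6%, 42.1 to 77.1) and receptors in 22 of 32 (68.8%, 50.0 to 83.9), with intervals that overlap widely. Receptor genes were the longer ones, with a median body of 147 kb, against 29.0 kb for ligand genes. A peak of at least 10-fold stood at 6 ligands (18.2%) and 9 receptors (28.1%), and one of at least 20-fold at 5 ligands (15.2%) and 2 receptors (6.25%). The median highest fold of bound genes was 5.01 for ligands and 7.41 for receptors, so the order of the groups depends on the level chosen.

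**Figure D2:**
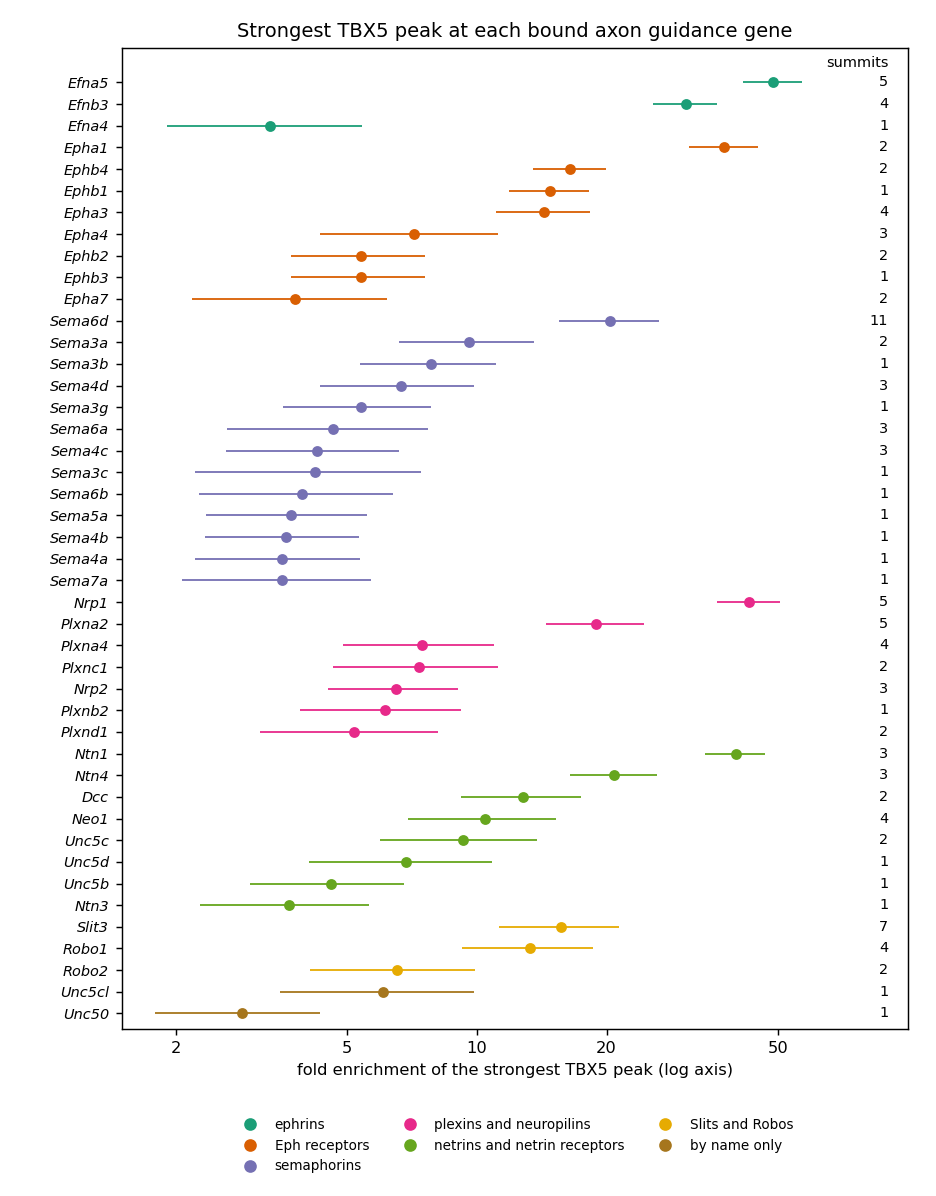
Fold enrichment of the strongest TBX5 peak (log x axis) at each of the 44 bound genes, coloured and ordered by family, with exact 95% Poisson intervals of the summit fragments; the number of summits at the gene is written on the right. Efna5, Nrp1, Ntn1, Epha1 and Efnb3 stand above 30-fold, while most semaphorins lie between 3-fold and 10-fold.

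Among ephrins, the membrane-anchored ligands of Eph receptors, binding was concentrated at a pair of genes. Efna5, a lipid-anchored ephrin that binds EphA receptors, had the highest fold of all 67 genes. That peak, at 62683178 to 62683558 on chromosome 17, reached 48.7-fold (41.5 to 56.7) from 162 fragments and ranked 40 among the 12284 peaks. It lay inside the gene, 197973 bp downstream of the start, in the authors' active class and outside TBX3 regions. The other 4 Efna5 summits were weaker, between 3.75-fold and 5.75-fold, and 1 of them lay 1847 bp upstream of the start.

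Efnb3, a transmembrane ephrin, had 4 promoter-class summits within 2.12 kb. The strongest, 884 bp downstream of the start assigned by the authors, reached 30.5-fold (25.6 to 36.04) at 69559112 to 69559564 on chromosome 11 and overlapped a TBX3 region. The next reached 18.9-fold (14.7 to 23.9) 1234 bp upstream of that start. Both stood well above the remaining pair, at 5.89-fold and 3.53-fold. All 4 were also within 10 kb of Wrap53, so they were counted for that gene as well. Efna4 had a single 3.31-fold promoter peak (1.91 to 5.40), and the other 4 ephrins were unbound. Efna2, Efna3 and Efna1 had their nearest summits 14376, 14829 and 56817 bp away. Efnb2, the arterial partner of Ephb4, had its nearest summit 26240 bp away, a poised peak of 6.85-fold.

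Of the Eph receptors 4 of 9 EphA genes and 4 of 5 EphB genes were bound. Epha1 had the strongest peak, 37.5-fold (31.1 to 44.9) from 116 fragments at 42369762 to 42370274 on chromosome 6. It lay inside the gene, 3324 bp downstream of its RefSeq start, although the authors' annotation placed it in the promoter class, 727 bp from another start. The other Epha1 summit, 3.33-fold, lay 8662 bp outside the gene and 3 bp from the start of Zyx, a focal adhesion protein gene. Both Epha1 summits were also in reach of Zyx. Ephb4, whose promoter is printed above, reached 16.5-fold (13.5 to 19.9) from 105 fragments at 137349828 to 137350223 on chromosome 5. A second, 4.41-fold summit lay 1225 bp upstream of the start. Both Ephb4 summits were also in reach of Slc12a9.

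Ephb1 and Epha3 had peaks of similar strength within their long bodies. The single Ephb1 summit, 14.8-fold (11.9 to 18.2) at 102262219 to 102262608 on chromosome 9, overlapped H3K27me3, the mark of Polycomb repression, and was classed as repressed. Epha3, a receptor needed for the endocardial cushions in mice, had 4 summits, the most of any Eph receptor. The strongest reached 14.3-fold (11.1 to 18.3) 21041 bp downstream of its start and was in neither the active nor the poised class. The other 3 lay between 3.97-fold and 6.96-fold. Epha4 had 3 summits, all poised and between 5.91-fold and 7.14-fold, and Ephb2 had a pair, also poised, at 5.38-fold and 5.08-fold. Ephb3 had 1 peak of 5.38-fold and Epha7 had 2, of 3.78-fold and 3.66-fold. The other 6 Eph receptors were unbound. Epha2, Epha8 and Epha10 had their nearest summits at 90749, 97204 and 148807 bp, and Epha5 and Ephb6 at 632821 and 645606 bp. Epha6, at 969 kb the longest unbound gene, had its nearest summit 74795 bp away.

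Semaphorins, which mostly repel axons and signal through plexins, were bound at 13 genes. The median of their highest folds was 4.26, against 5.64 for all bound genes, and Sema6d, Sema3a, Sema3b and Sema4d exceeded that level. The median was 6.60 for the bound class 3 semaphorins and 3.92 for the others. Sema6d had the highest fold and the most summits of the family. This transmembrane semaphorin, known from the chick for a role in shaping the heart tube, held 11 summits over 498 kb of its 578 kb body, and ranked 15 among all genes by number of summits. They ranged from 3.25-fold to 20.4-fold, and 8 were active, 2 poised and 1 in neither class. The strongest reached 20.4-fold (15.5 to 26.5) at 124332879 to 124333175 on chromosome 2. It lay 243041 bp downstream of the RefSeq start nearest to it and 2367 bp from a weaker summit of 5.23-fold. The next, 13.9-fold (10.4 to 18.1), lay 38527 bp further on. No Sema6d summit was in the promoter class, and 2 overlapped TBX3 regions.

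Class 3 semaphorins, which are secreted and mostly use neuropilins as co-receptors, were bound in 4 of 6 cases. Sema3a, a repellent that patterns cardiac sympathetic nerves, had a promoter-class peak of 9.61-fold (6.59 to 13.6) from 30 fragments at 13399199 to 13399481 on chromosome 5, 56 bp from the start assigned by the authors and 2581 bp from the RefSeq start. Its other summit had 6.04-fold (3.49 to 9.86). Sema3c, a ligand needed for outflow tract septation, had a 4.22-fold peak (2.22 to 7.44) from 10 fragments in its body. The bound state of Sema3g and Sema3b rested on summits outside the genes. The 5.38-fold peak (3.56 to 7.84) counted for Sema3g lay 8510 bp from it and 1051 bp downstream of the start of Tnnc1, cardiac troponin C. The 7.81-fold peak (5.35 to 11.0) counted for Sema3b lay 4384 bp from it, in reach of 4 other genes. Sema3f and Sema3e were unbound, with the nearest summits at 48108 and 625911 bp.

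The other semaphorins had few or weak peaks. Sema4d, an immune and vascular semaphorin, had 3 summits up to 6.67-fold (4.33 to 9.88). Sema6a had 3 up to 4.64-fold. Sema4c also had 3, but 2 of them were promoter-class peaks 9289 and 1263 bp outside the gene, and the nearer of them lay 124 bp from the start of Ankrd39. Its own promoter peak, 293 bp downstream of the start, had 4.11-fold (2.74 to 5.96). Sema4a, Sema4b, Sema5a, Sema6b and Sema7a had 1 summit each, between 3.53-fold and 3.92-fold, and that of Sema7a lay 2613 bp outside the gene. Sema4f and Sema6c were unbound, with the nearest summits at 27031 and 53651 bp. Sema5b and Sema4g were unbound too and had strong but distant nearest summits, of 15.1-fold at 101899 bp and 12.1-fold at 63856 bp.

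Receptors of semaphorins included one of the strongest peaks. Nrp1, the neuropilin that serves class 3 semaphorins and VEGF and is needed for outflow tract septation, had 5 summits, all active. The strongest reached 42.9-fold (36.1 to 50.5) from 142 fragments at 128371737 to 128372226 on chromosome 8, 12945 bp downstream of its start and inside the gene. It ranked 62 among all peaks. A second lay 52 bp upstream of the start with 5.89-fold (3.92 to 8.53) and another 1843 bp upstream with 4.72-fold. The interval of the peak at the start does not overlap that of the strongest peak. Nrp2, the related receptor, had 3 summits, the highest at 6.49-fold (4.53 to 9.04), which lay 9567 bp outside the gene, farther than any other summit counted here. The pair inside the gene had 4.51-fold and 4.19-fold.

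Plxna2, a semaphorin receptor of cardiac neural crest, also had 5 summits. Its strongest peak, 18.9-fold (14.4 to 24.4) at 194610541 to 194610904 on chromosome 1, lay 9103 bp upstream of the start and 9065 bp outside the gene body, close to the 10 kb limit. Peaks of 13.5-fold (9.75 to 18.2) and 8.61-fold (6.15 to 11.7) lay inside the gene. Plxna4 had 4 summits up to 7.47-fold, spread over 264 kb. Plxnc1 had 2, both overlapping TBX3 regions, of 7.36-fold 1494 bp outside the gene, in reach of Cep83, and of 6.59-fold inside it. Plxnd1, the endothelial receptor of Sema3e, had 2 of 5.18-fold and 4.76-fold, and Plxnb2 had 1 of 6.12-fold. Plxna1 and Plxnb1 were unbound, with the nearest summits at 93196 and 401582 bp.

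Netrins attract or repel through Dcc, neogenin and Unc5 receptors, and both sides of this pathway were bound. Ntn1, the main secreted netrin, had the strongest peak of the group, 39.8-fold (33.9 to 46.5) from 157 fragments at 68390570 to 68391371 on chromosome 11. It lay 4145 bp upstream of the start, outside the gene body, with a width of 802 bp. This region overlapped H3K27me3 as well as H3K27ac and was classed as bivalent. It also overlapped H3K4me1, H3K9ac and a TBX3 region. The promoter, 111 bp upstream of the start, had a 4.58-fold active peak (2.97 to 6.78). Ntn4, a netrin of basement membranes, had 3 summits. Its strongest reached 20.9-fold (16.4 to 26.1) at 93647968 to 93648306 on chromosome 10, 7087 bp downstream of the start.

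The receptor Dcc held 2 summits in its 1098 kb body, of 12.8-fold (9.21 to 17.4) and 5.49-fold. Neo1, which encodes neogenin, a receptor for netrins and repulsive guidance molecules, had 4, the most of this family. The strongest, 10.5-fold (6.92 to 15.3) at 58889847 to 58890335 on chromosome 9, lay near the far end of the gene, 146275 bp from its start, and overlapped a TBX3 region, while the promoter peak 162 bp upstream of the start had 4.09-fold. Unc5c had an active peak of 9.26-fold (5.96 to 13.8) inside the gene beside its bivalent promoter peak of 5.07-fold (3.38 to 7.34). Unc5d had 1 of 6.85-fold and Unc5b, a receptor of vascular endothelium, 1 of 4.58-fold. The Ntn3 summit, 3.67-fold, lay inside the gene but 25 bp from the start of the neighbour Tbc1d24. Unc5a was unbound, with the nearest summit at 186730 bp. Ntn5, at 11642 bp, was the unbound member nearest to the 10 kb limit. Among bound members Sema3g, at 8510 bp, was the one whose nearest summit lay farthest outside the gene.

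Slits repel through Robo receptors, and Slit3, which is needed for the diaphragm and heart in mice, was the only Slit with a summit. It held 7 summits over 318 kb of its 587 kb body, of which 3 were poised, 2 active and 2 in neither class. The strongest reached 15.7-fold (11.2 to 21.4) from 38 fragments at 35569861 to 35570312 on chromosome 11, 448688 bp downstream of the start, and was poised. The next had 10.5-fold (6.92 to 15.3). None was in the promoter class and none overlapped a TBX3 region. Robo1 had 4 summits, the strongest at 13.3-fold (9.22 to 18.6), with 3 of the 4 in neither the active nor the poised class. Robo2 had a pair 5552 bp apart, of 6.51-fold and 5.89-fold, in a body of 1555 kb. Slit1, Slit2 and Robo3 had their nearest summits at 114731, 111462 and 268628 bp. The pair of genes that share the Unc5 prefix by name had 1 summit each, of 6.04-fold at Unc5cl and of 2.85-fold 73 bp upstream of Unc50 and 37 bp from the start of Coa5.

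**Figure D3:**
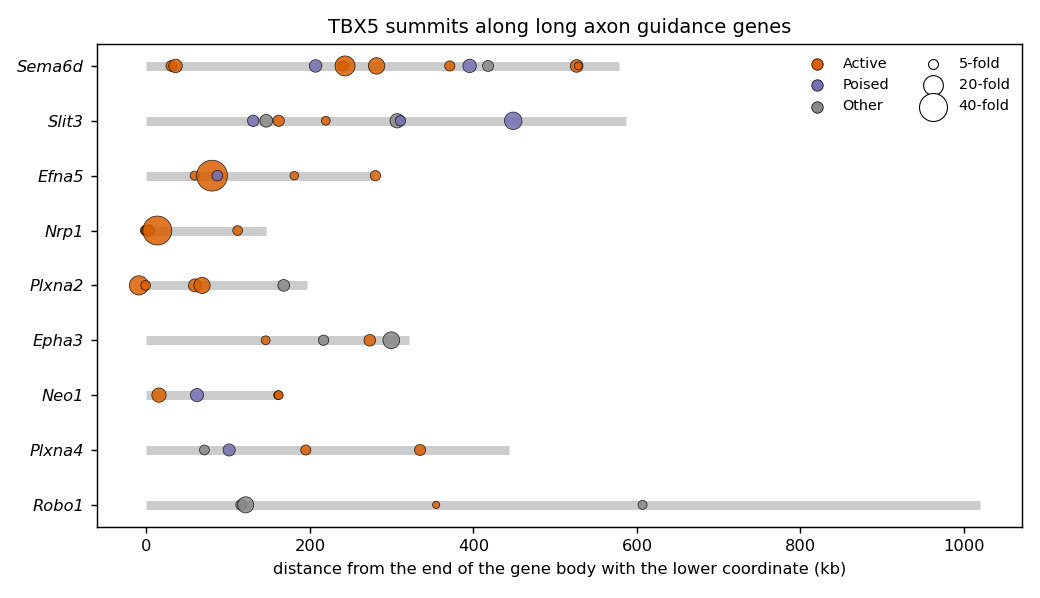
TBX5 summits along the 9 bound genes longer than 100 kb with at least 4 summits; the x axis gives the distance in kb from the end of the gene body with the lower coordinate, grey bars are gene bodies, circle area is proportional to fold and colour gives the authors' chromatin class. The Sema6d and Slit3 summits are spread along the gene, while Efna5 and Nrp1 have 1 dominant summit of 48.7-fold and 42.9-fold.

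The chromatin classes of the 111 summits resembled those of all peaks. Active classes made up 76 (68.5%, 59.0 to 77.0), against 73.6% of all peaks, and poised ones 18 (16.2%, 9.90 to 24.4), against 14.3%. The promoter class, within 2 kb of a start, held 29 (26.1%, 18.2 to 35.3), against 24.5%. TBX3 regions overlapped 23 (20.7%, 13.6 to 29.5), against 27.2%. H3K9ac, an acetylation of active promoters and enhancers, overlapped 47 (42.3%, 33.0 to 52.1), against 46.1%. H3K27me3 overlapped 4 (3.60%, 0.990 to 8.97), against 1.62%. The level of all peaks lay inside the interval of the axon guidance summits for each of these classes. The 4 summits with H3K27me3 were those of Ntn1, Ephb1, Unc5c and Sema6b, with folds between 3.92 and 39.8. None of the 111 overlapped H3K9me3, which allows a share of up to 3.27% (upper bound of the exact interval), against 30 of all 12284 peaks.

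**Figure D4:**
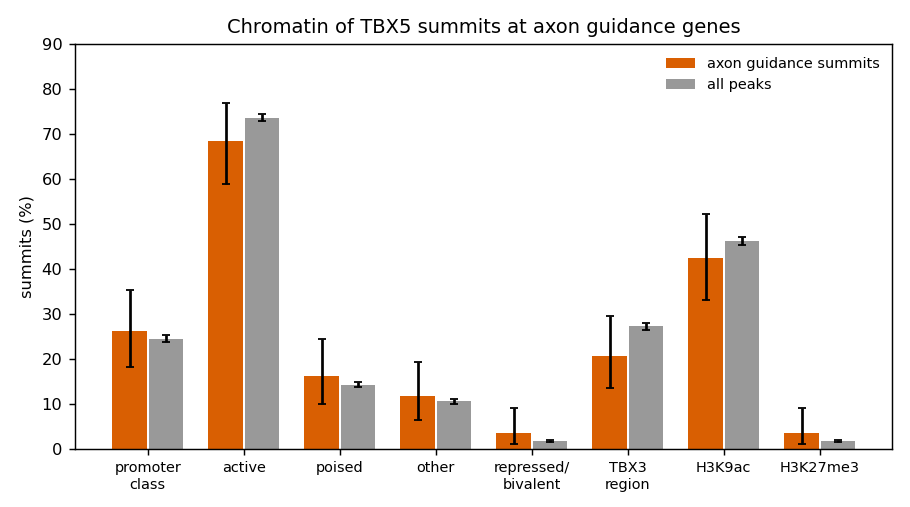
Percentage of summits (y axis) in the authors' promoter and chromatin classes or overlapping TBX3, H3K9ac and H3K27me3 regions (x axis), for the 111 summits at axon guidance genes (orange) and all 12284 peaks on chromosomes 1 to 19 (grey), with exact 95% binomial intervals that treat peaks as independent. Each grey bar ends within the interval of the orange bar beside it, as for the active classes at 68.5% against 73.6%.

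By strength, the summits had a median fold of 5.77, against 5.67 for all peaks, and 7 of them (6.31%) reached 20-fold, against 4.04%. Promoter-class summits were the weaker ones here as in the whole list, with a median of 4.58 against 6.10 for the other axon guidance summits. Over all peaks these medians were 4.39 and 6.20. Promoter-class summits were not always near a start of the gene they were counted for. Of the 29, 14 lay within 2 kb of a RefSeq start of the member itself and 8 lay over 2 kb from every such start. The remaining 7 stood at members without a RefSeq promoter window here, Efnb3, Ntn1 and Sema6a. Of all 111 summits 18 were also in reach of another protein-coding gene. At 9 of the 44 bound members, all of them genes under 30 kb, every summit was.

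Co-receptors and cytoplasmic effectors of the same pathways were also examined. Of 56 such genes 32 were bound (57.1%, 43.2 to 70.3, against 30.9% of all genes), and their median highest fold was 6.85. The median gene body of the 56 was 109 kb. Of all genes over 100 kb 64.0% were bound, a level inside that interval, although not all of the 56 are that long. The strongest peaks stood at Mical3, an actin-oxidising enzyme of the semaphorin pathway (7 summits, up to 44.6-fold), at Srgap1, a GTPase-activating protein downstream of Robo (4 summits, up to 33.3-fold), and at Trio, a guanine nucleotide exchange factor used by Dcc (13 summits, up to 31.9-fold).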

How the data were processed

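ChIP-seq libraries of the 2 TBX5 samples and the input held fragments of 200 to 650 bp read as 50-base single ends, per the labels' protocols. The submitters' processing notes name MACS2, Bowtie2, ChIPseeker and SAMtools with the build mm10, while the sources used here give no versions or settings. The authors deposited 1 pooled peak list, with a fold (ratio over local background), a −log10 p and q and a score per peak. A second deposited table holds the signed distance to a start in bp, promoter and chromatin classes and overlaps with histone mark and TBX3 regions. For the histone mark and TBX3 regions the sources used here give neither tissue nor stage. For marks with a pair of region columns, overlap with either counted. The sources used here give no read depth per sample.

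Summits were assigned to RefSeq gene bodies of GRCm38.p6 extended by 10 kb, counting each gene in reach, and positions are 1-based on mm10. The table gives neither exons nor introns. The whole-number fragment pileup at each summit was solved from fold and −log10 p (largest misfit 0.000242). On 500 simulated peaks it was recovered in 100% of cases. Intervals are exact Poisson (fragments) or Clopper-Pearson (shares). No test was made, since genes and peaks are not replicates. Members, families and other lists were chosen with earlier results of these data known. Every member is named, with full values for the member of highest fold and that of most summits in each family and for the 10 of highest fold; of the other pathway genes the 3 of highest fold are named. The tools were scipy 1.17.1, matplotlib 3.10.9, pandas 2.3.3, numpy 2.4.6 and Python 3.11.15.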

Additional observations from a re-analysis of the deposited data

How the results depend on the processing

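With the gene body extended by 0 or 50 kb, with non-promoter peaks alone, with each summit given to the nearest gene, or without Unc50 and Unc5cl, 38, 50, 34, 41 and 42 axon guidance genes were bound (56.7%, 74.6%, 50.7%, 61.2% and 64.6%), against 19.8%, 51.3%, 18.1%, 24.7% and 30.9% of all genes. Stricter lists moved the counts. With −log10 q of at least 10, 24 genes (35.8%, against 14.2% of all genes) and 40 summits remained. The median highest fold was 13.8 and 24 genes kept their strongest peak. With peaks of at least the median fold, 27 genes (40.3%, against 15.4% of all genes) and 57 summits remained. The median was then 12.8, 27 genes kept their strongest peak, and 12.3% of summits were in the promoter class and 57.9% active. With promoter-class peaks alone, 19 genes (28.4%, against 17.9% of all genes) and 29 summits remained. Of these summits 93.1% were active, and 12 genes kept their strongest peak. Without extension 16.5% of summits were in the promoter class. Where both region columns of a mark had to agree, 55.0% were active. With AGGTGTGA the share of promoter windows with a T-box motif was 1.37%. By construction the stricter lists admit fewer peaks and the longer motif fewer windows, and other causes were not tested. A gene left bound by a floor on fold also keeps its strongest peak by construction, and a floor on −log10 q acts in much the same way. No paired analysis was possible because the peaks were called on pooled samples and no result comes from a test, and no replicate could be left out. Of the values of single genes (number of summits and highest fold), 67 of 88 stayed within 1.5 times (summits) or within the interval of the fold without extension, 64 of 88 with 50 kb and 79 of 88 with the nearest gene. Without extension 9 moved and 12 were lost, those of the 6 genes left with no summit (Ephb4 with its 16.5-fold peak, Sema3b, Sema3g, Sema6b, Sema7a and Unc50). With the nearest gene 3 moved and 6 were lost with 3 genes. Fewer of the 88 stayed with non-promoter peaks alone (61, 20 lost) and with peaks of at least the median fold (42, 34 lost). With −log10 q of at least 10 it was 29 (40 lost), and with promoter-class peaks alone 24 (50 lost). Depth limits weak peaks most, such as Sema3c with 10 fragments.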
